A study of Homo sapiens with 19 samples.

Results

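The genes described here encode enzymes that remove the repressive mark H3K27me3, which Polycomb repressive complex 2 (PRC2) places on chromatin, or that add or remove methyl groups on H3K4 and H3K36. They are the H3K27 demethylases KDM6A and KDM6B, the 6 H3K4 methyltransferases KMT2A, KMT2B, KMT2C, KMT2D, SETD1A and SETD1B, the H3K4 demethylase KDM5B and the H3K36 methyltransferase NSD1. They were taken by gene symbol, and all 10 were found among the 33382 genes for which TPM, a level per transcript length scaled to the same total in every library, was deposited for 19 samples. Lines made from H1, an established human embryonic stem cell (hESC) line, had 2 samples each: WT, EED-/-, EZH1-/-, SUZ12-/-, EZH2-/- and EZH2-/-/EZH1-/-. The knockouts were made with Cas9 and a donor that replaced a functional domain by a selection cassette, and EZH2-/-/EZH1-/- cells were made from EZH2-/- cells after Cre removed the first cassette. H1-EED-/-/EED-OE cells lack endogenous EED and carry a lentiviral EED transgene driven by doxycycline (DOX). They had 1 sample with DOX, whose title also carries day 28, and 1 sample at each of days 8, 12, 16, 20, 24 and 28 after DOX withdrawal. All lines were grown in mTeSR1 medium on Matrigel. The study reported that H3K27me3 was lost in EED-/-, SUZ12-/- and EZH2-/-/EZH1-/- cells, called PRC2-null here, and lowered but kept in EZH1-/- and EZH2-/- cells, which together with WT are called the retaining lines.

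Methyl groups on H3K27 are placed by PRC2 and removed by KDM6A (UTX) and KDM6B (JMJD3), enzymes that need iron and 2-oxoglutarate. The trithorax side works through complexes related to yeast COMPASS, in which a SET-domain methyltransferase sits on a shared core of WDR5, RBBP5, ASH2L and DPY30. SETD1A and SETD1B make most H3K4me3 at active promoters, KMT2A and KMT2B act at developmental genes and at promoters rich in CG dinucleotides, and KMT2C and KMT2D place H3K4me1 at enhancers, in complexes that also hold KDM6A. Methylation of H3K4 and of H3K36 hinders PRC2 on the same histone tail. In hESCs, many developmental promoters carry H3K4me3 and H3K27me3 together.

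Some facts of the libraries bear on every value below. The deletions removed a domain and not the whole gene, so gene-level TPM does not check the knockout labels: EZH1 was at 12.5 and 17.1 TPM in EZH1-/- samples and 13.7 and 14.3 in WT, and EED at 14.3 and 22.4 in EED-/- samples and 17.3 and 21.96 in WT. The transgene was seen, with EED at 108.5 TPM in the sample with DOX and between 12.6 and 31.6 without it. The label of hESC held in the retaining lines, where 6 pluripotency markers (POU5F1, NANOG, SOX2, LIN28A, TDGF1 and DNMT3B) summed to between 5262 and 6524 TPM, but not in the PRC2-null samples, where they summed to between 129.2 and 438.8 TPM and all 6 fell. There, 6 endoderm markers summed to between 1413 and 20140 TPM, against 5.03 to 15.02 in the retaining samples, and 6 mesoderm markers to between 2392 and 5811 TPM, against 58.7 to 181.6. TBX20 and SOX1 were at 0 in a PRC2-null sample, and SOX17, FOXA2, TTR, HAND1, PECAM1, TBX20, SOX1 and CDX2 each were in a retaining sample. Neural markers summed to between 67.1 and 385.1 TPM in the PRC2-null and 94.5 and 196.3 in the retaining samples, and trophoblast markers to between 73.1 and 406.2 TPM against 11.9 to 14.8. The marker levels thus moved with the groups in which the members were compared, fewer cells of a type and less RNA per cell cannot be told apart in bulk RNA, and the part of cell identity in the differences below was not tested.

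The libraries also differed by transcript length. Against the mean of all 19 samples, genes whose canonical transcript is over 8 kb deviated by 0.70 and 0.51 in median on the log2(TPM + 1) scale in the EED-/- samples, by 0.47 and -0.34 in the EZH2-/-/EZH1-/- samples, by 0.18 and 0.13 in the SUZ12-/- samples and by -0.02 and 0.02 in WT. The sample with DOX lay at -0.68 and day 28 at 0.31. The members have long transcripts, between 5991 and 20635 bases with a median of 8925 (all genes tested, 2811), and 7 of the 10 are over 8 kb. The plot of deviation by transcript length shows the libraries fanning out toward the long classes. EZH2-/-/EZH1-/- replicate 2 lay on the opposite side from replicate 1, and 9 of the 10 members were lower in replicate 2. The differences were also computed after centring each library within classes of transcript length, a choice made after the values had been seen, and these values are given beside the others.

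**Figure D1:**
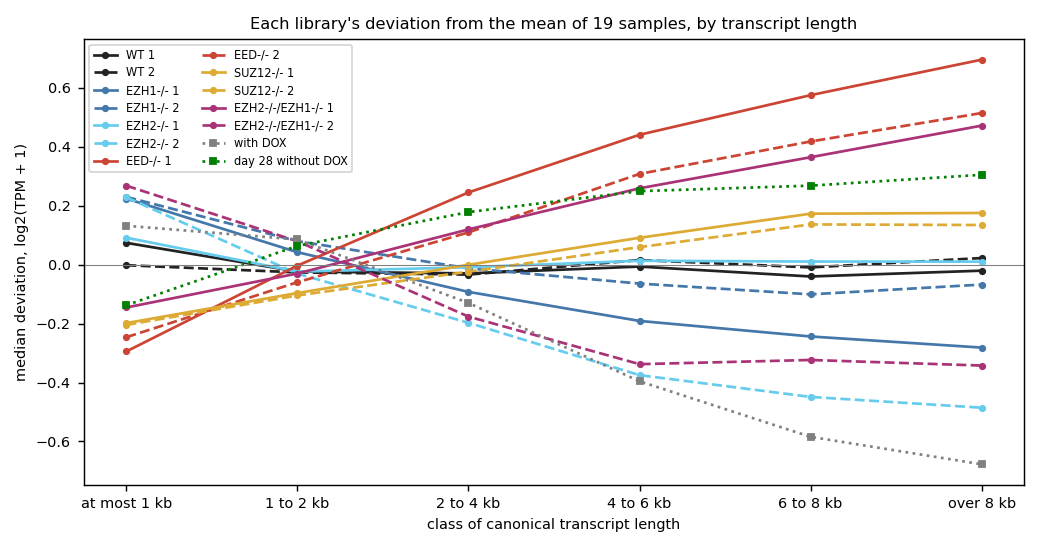
Median deviation of log2(TPM + 1) from the mean of 19 samples (vertical axis) in 6 classes of canonical transcript length (horizontal axis), 1 line a library for the 12 samples of the 6 lines, the sample with DOX and day 28 without it. For transcripts over 8 kb the libraries range from -0.68 with DOX to 0.70 in EED-/- replicate 1, and the EZH2-/-/EZH1-/- replicates lie at 0.47 and -0.34.

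KDM6B was near silence in the retaining lines and expressed in all 3 PRC2-null lines. Its level was 0.66 and 1.24 TPM in WT, 0.72 and 1.66 in EZH1-/- and 1.71 and 0.81 in EZH2-/- samples. It was 36.1 and 28.1 TPM in EED-/-, 15.4 and 16.3 in SUZ12-/- and 35.5 and 22.5 in EZH2-/-/EZH1-/- samples. The lowest PRC2-null sample stood at 15.4 TPM and the highest retaining sample at 1.71, so the groups did not overlap, and the line means differed 22.6-fold. In the same test 24.2% of all 19100 genes kept had every PRC2-null sample above every retaining sample, and KDM6B was the only member that did. Every PRC2-null sample lay below every retaining sample for 13.3% of genes and for 0 members. The plot of the members by line shows the same gap.

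**Figure D2:**
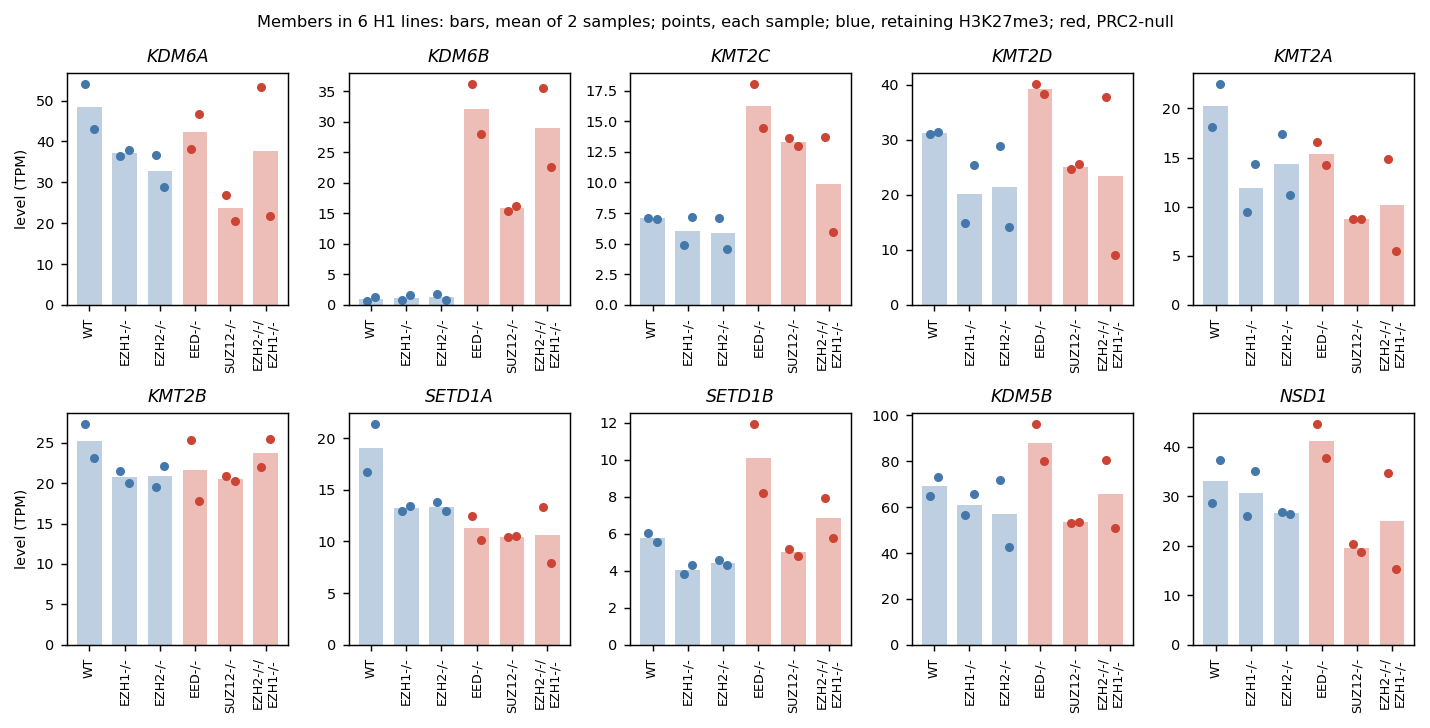
Level in TPM (vertical axis, from 0) of the 10 members in 6 lines (horizontal axis). Bars are means of 2 samples, points are samples, blue lines retain H3K27me3 and red lines are PRC2-null. KDM6B rises from at most 1.71 TPM to at least 15.4 TPM, while all other members overlap between the colours. For most of them the EZH2-/-/EZH1-/- points lie far apart.

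On the log2(TPM + 1) scale, which understates changes of low genes, KDM6B was higher by 3.60 (SE 0.20) in the PRC2-null than in the retaining lines, with an adjusted p of 7.05e-08 in limma over all genes. Such a rise was common in kind but not in size: 43.8% of genes tested were called higher and 24.8% lower at an adjusted p of at most 0.05, and 459 of them (2.40%) rose by at least as much as KDM6B. With an adjusted p of at most 0.01 and a fold of at least 3, the thresholds the study used, KDM6B was the only member called and 13.5% of genes were called higher. Against WT alone it rose by 4.09 (SE 0.34) in EED-/-, 3.12 (SE 0.34) in SUZ12-/- and 3.93 (SE 0.34) in EZH2-/-/EZH1-/- cells, with adjusted p of 5.13e-06, 3.60e-05 and 1.05e-05 in limma. In EZH1-/- and EZH2-/- cells the differences were 0.15 and 0.20 (SE 0.34 each), with adjusted p of 0.924 and 1.00 in limma.

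The 6 lines ordered by KDM6B as WT (0.95 ± 0.41 TPM, SD, n = 2), EZH1-/- (1.19 ± 0.66), EZH2-/- (1.26 ± 0.64), SUZ12-/- (15.8 ± 0.65), EZH2-/-/EZH1-/- (29.0 ± 9.16) and EED-/- (32.1 ± 5.71). The samples of WT, EZH1-/- and EZH2-/- cells overlapped, as did those of EZH2-/-/EZH1-/- and EED-/- cells, while both SUZ12-/- samples lay below both EZH2-/-/EZH1-/- samples. None of these neighbours among the PRC2-null lines was called. The limma adjusted p was 0.153 for SUZ12-/- against EZH2-/-/EZH1-/- cells, 0.815 for EED-/- against EZH2-/-/EZH1-/- cells and 0.0743 for EED-/- against SUZ12-/- cells. SUZ12-/- cells were lower than EZH2-/-/EZH1-/- cells by 0.94 on the log2 scale after length-class centring, where the adjusted p in limma was 0.0214. The difference between EED-/- and SUZ12-/- cells passed the threshold when an EZH2-/-/EZH1-/- sample was left out.

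KDM6B lies at chr17:7834217-7854796 on the plus strand of GRCh38, and RefSeq gives it 2 starts. Because H3K27me3 in hESCs sits mainly at starts rich in CG dinucleotides, the bases before each start are shown with those before KDM6A for contrast, CG in capitals. They are credited to RefSeq on GRCh38.p14, are 5′ to 3′ on the plus strand, and stop before any annotated exon. The first KDM6B run is chr17:7833967-7834216, the second chr17:7839667-7839903 and the KDM6A run chrX:44872938-44873187.
KDM6B first start: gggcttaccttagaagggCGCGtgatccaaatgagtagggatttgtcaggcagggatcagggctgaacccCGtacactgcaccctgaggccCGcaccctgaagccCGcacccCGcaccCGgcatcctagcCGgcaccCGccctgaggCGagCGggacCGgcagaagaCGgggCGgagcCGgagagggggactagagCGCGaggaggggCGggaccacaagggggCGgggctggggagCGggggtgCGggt
KDM6B second start: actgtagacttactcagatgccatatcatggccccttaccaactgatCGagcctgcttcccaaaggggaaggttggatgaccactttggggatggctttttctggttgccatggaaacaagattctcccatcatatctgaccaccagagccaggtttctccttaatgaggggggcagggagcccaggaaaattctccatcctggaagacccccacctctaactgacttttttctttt
KDM6A start: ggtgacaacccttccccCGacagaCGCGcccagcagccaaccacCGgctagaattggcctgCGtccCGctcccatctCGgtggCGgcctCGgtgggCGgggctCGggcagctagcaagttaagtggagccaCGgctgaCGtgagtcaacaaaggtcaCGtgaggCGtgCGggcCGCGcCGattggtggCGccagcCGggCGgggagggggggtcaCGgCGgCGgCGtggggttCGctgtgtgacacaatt

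In the 250 bases before the start, the first KDM6B start holds 21 CG dinucleotides, a number reached by 30.2% of the 35116 promoters in the RefSeq table, and the second holds 1, reached by 93.9%. KDM6A holds 27, reached by 17.7%, so the member that rose and its paralog both have a start with more CG than the median promoter, at 11. Gene-level TPM does not tell the 2 KDM6B starts apart. The RefSeq table matched 9 of the 10 members, with 14 starts, of which 12 were above the median; KMT2C, at 48, was reached by only 0.3% of promoters. SETD1B was not among them.

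KDM6A was expressed in every sample. Its level was 54.0 and 42.9 TPM in WT, 36.5 and 37.8 in EZH1-/-, 36.7 and 28.9 in EZH2-/-, 38.2 and 46.7 in EED-/-, 26.9 and 20.5 in SUZ12-/- and 53.4 and 21.8 in EZH2-/-/EZH1-/- samples. The groups overlapped, since the PRC2-null samples spanned 20.5 to 53.4 TPM and the retaining ones 28.9 to 54.0, and the difference of -0.25 (SE 0.20) was not called, with an adjusted p of 0.284 in limma. On TPM as deposited SUZ12-/- cells were the exception, where KDM6A fell by 1.01 (SE 0.35) against WT, with an adjusted p of 0.0355 in limma. This call held in 12 of 19 alternatives and was lost with no filter and without either WT, EZH1-/- or SUZ12-/- sample. Background for that comparison was 17.4% of genes called lower and 29.5% called higher. Between the PRC2-null and retaining lines KDM6A was called lower with median-ratio scaling, at -0.51 (adjusted p 0.0182 in limma), and with length-class centring. In EED-/- cells it was called lower than in WT with length-class centring, at -0.72 (adjusted p 0.0248 in limma). KDM6A lies on the X chromosome, and reads shared with its paralog on the Y chromosome could have been split in the quantification.

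Within a sample, the share of KDM6B in the summed level of both demethylases ran from 1.21% to 4.45% in the retaining lines and from 36.3% to 50.8% in the PRC2-null lines. Their summed level overlapped, at 29.7 to 54.6 TPM in the retaining and 36.7 to 88.9 TPM in the PRC2-null samples. KDM6A was thus nearly the sole H3K27 demethylase transcript of the pair in undifferentiated H1 cells. In the cells without PRC2, KDM6B stood at 0.57 to 1.03 times the level of KDM6A. EZH2-/-/EZH1-/- replicate 2, with 22.5 TPM of KDM6B and 21.8 of KDM6A, and EED-/- replicate 1, with 36.1 and 38.2, lay closest to equality.

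KMT2C, which methylates H3K4 at enhancers, was the other member that rose under each of 3 scalings. Its level was 7.12 and 7.04 TPM in WT, 4.90 and 7.14 in EZH1-/- and 7.11 and 4.56 in EZH2-/- samples. It was 18.01 and 14.5 TPM in EED-/-, 13.7 and 12.97 in SUZ12-/- and 13.7 and 5.97 in EZH2-/-/EZH1-/- samples. All PRC2-null samples but 1 lay above the retaining maximum of 7.14 TPM, the exception being EZH2-/-/EZH1-/- replicate 2. The difference was 0.91 (SE 0.21), with an adjusted p of 0.00252 in limma. It was 0.67 with median-ratio scaling and 0.49 with length-class centring, with adjusted p of 0.00288 and 0.00280, and 1.09 without EZH2-/-/EZH1-/- replicate 2. KMT2C shares sequence with duplicated partial copies elsewhere in the genome, so its level is uncertain as far as the quantification split those reads.

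By line, KMT2C rose against WT in EED-/- cells by 1.08 (SE 0.36), with an adjusted p of 0.0269 in limma. The call was lost without either WT sample (adjusted p 0.0984 and 0.1004 in limma), without either EED-/- sample (0.135 and 0.0521) and with length-class centring, where the difference was 0.47 (0.0639). In SUZ12-/- and EZH2-/-/EZH1-/- cells the differences of 0.82 and 0.33 (SE 0.36 each) were not called, with adjusted p of 0.0827 and 0.489 in limma. KMT2D, its paralog, was at 31.1 and 31.5 TPM in WT, 14.9 and 25.3 in EZH1-/-, 28.8 and 14.2 in EZH2-/-, 40.1 and 38.2 in EED-/-, 24.6 and 25.6 in SUZ12-/- and 37.7 and 9.03 in EZH2-/-/EZH1-/- samples. The samples of EZH1-/-, EZH2-/- and EZH2-/-/EZH1-/- cells lay far apart and those of WT, EED-/- and SUZ12-/- cells close together, and the difference of 0.18 (SE 0.30, adjusted p 0.606 in limma) turned to -0.07 with median-ratio scaling and -0.24 with length-class centring.

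KMT2C was also set against other long members within each sample. The KMT2C/KMT2A ratio was 0.39 and 0.31 in WT, 0.52 and 0.50 in EZH1-/- and 0.41 and 0.41 in EZH2-/- samples, against 1.09 and 1.02 in EED-/-, 1.55 and 1.49 in SUZ12-/- and 0.92 and 1.08 in EZH2-/-/EZH1-/- samples. The groups did not overlap in this ratio, whose denominator had a lower mean in every knockout line than in WT. KMT2A was called lower than in WT in SUZ12-/- and EZH2-/-/EZH1-/- cells. The KMT2C/KMT2D ratio ran from 0.22 to 0.33 in the retaining and from 0.36 to 0.66 in the PRC2-null samples, again with no overlap. The KMT2C/KMT2B ratio did overlap, at 0.21 to 0.36 in the retaining and 0.23 to 0.81 in the PRC2-null samples, where EZH2-/-/EZH1-/- replicate 2, at 0.23, lay in the retaining range. After DOX withdrawal KMT2C/KMT2D was at 0.41 on day 8 and between 0.19 and 0.23 on days 12 to 28, outside the range of the PRC2-null lines on those later days, against 0.14 with DOX. No share over all genes was computed for ratios of this kind. KMT2A, KMT2C and KMT2D all have transcripts of at least 16600 bases. The plot of ratios by sample shows both groups and the DOX series.

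KMT2A (MLL1) and SETD1A were lower in PRC2-null lines where they were called, but both also lay below WT in the single knockouts. Against WT, SETD1A differed by -0.49 in EZH1-/- and -0.47 in EZH2-/- cells, and KMT2A by -0.74 and -0.50. These were not called in the fit of all 6 lines. In EED-/- cells KMT2A differed from WT by only -0.37. SETD1A was at 16.8 and 21.3 TPM in WT, 12.98 and 13.4 in EZH1-/-, 13.8 and 12.9 in EZH2-/-, 12.5 and 10.1 in EED-/-, 10.4 and 10.5 in SUZ12-/- and 13.4 and 7.89 in EZH2-/-/EZH1-/- samples. The highest PRC2-null sample, at 13.4 TPM, reached into the range of the single knockouts but not into that of WT, whose lower sample was at 16.8. SETD1A fell by 0.45 on the log2 scale (SE 0.16), with an adjusted p of 0.0243 in limma. It fell by 0.70 both with median-ratio scaling and with length-class centring. The call was lost in 6 of the 12 fits that left out a sample, with adjusted p of up to 0.0780 without WT replicate 2. Against WT it fell by 0.80 in SUZ12-/- and by 0.82 in EZH2-/-/EZH1-/- cells (SE 0.27 each), with adjusted p of 0.0328 and 0.0311 in limma. These calls held in 13 and 11 of 19 alternatives, and without EZH2-/-/EZH1-/- replicate 2 the second was -0.47 (adjusted p 0.144). In EED-/- cells the difference of -0.70 missed the threshold as deposited, with an adjusted p of 0.0503 in limma. It was called in 6 of 19 alternatives, at -1.07 with median-ratio scaling and -1.10 with length-class centring (adjusted p 0.00181 and 7.4e-04 in limma).

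KMT2A was at 18.1 and 22.5 TPM in WT, 9.47 and 14.4 in EZH1-/-, 17.4 and 11.2 in EZH2-/-, 16.6 and 14.2 in EED-/-, 8.78 and 8.71 in SUZ12-/- and 14.9 and 5.52 in EZH2-/-/EZH1-/- samples. The difference between the PRC2-null and retaining lines, -0.44 (SE 0.23), was not called (adjusted p 0.111 in limma) on TPM as deposited. It was called with median-ratio scaling, at -0.69, and with length-class centring, at -0.86. Against WT, KMT2A fell by 1.12 in SUZ12-/- and by 1.06 in EZH2-/-/EZH1-/- cells (SE 0.40 each), with adjusted p of 0.0379 and 0.0498 in limma. Leaving out samples removed these calls often: the one in EZH2-/-/EZH1-/- cells held in 4 of 19 alternatives and the one in SUZ12-/- cells in 12 of 19. Without EZH2-/-/EZH1-/- replicate 2 the first was -0.42, with an adjusted p of 0.325 in limma.

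KMT2B (MLL2), which acts at CG-rich promoters, was the steadiest member on TPM as deposited. It was at 27.3 and 23.1 TPM in WT, 21.6 and 20.0 in EZH1-/-, 19.5 and 22.1 in EZH2-/-, 25.4 and 17.8 in EED-/-, 20.9 and 20.2 in SUZ12-/- and 22.04 and 25.5 in EZH2-/-/EZH1-/- samples. All 12 samples lay between 17.8 and 27.3 TPM, and the difference was -0.02 (SE 0.13), with an adjusted p of 0.8999 in limma. It was called in none of the 19 alternatives for this contrast, which gave differences from -0.44 to 0.06. The lowest was with length-class centring (adjusted p 0.0522 in limma), where KMT2B was also called lower in EED-/- cells than in WT.

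SETD1B, the paralog of SETD1A, moved the other way. It was at 6.03 and 5.54 TPM in WT, 3.84 and 4.30 in EZH1-/-, 4.57 and 4.30 in EZH2-/-, 11.9 and 8.22 in EED-/-, 5.18 and 4.82 in SUZ12-/- and 7.91 and 5.76 in EZH2-/-/EZH1-/- samples. Both SUZ12-/- samples lay within the range of the retaining lines, and the difference of 0.48 (SE 0.15, adjusted p 0.0166 in limma) averages them with the other PRC2-null lines. It was not called with median-ratio scaling (0.25), with length-class centring (0.06) or against WT alone (0.23). The SETD1B/SETD1A ratio ran from 0.26 to 0.36 in the retaining and from 0.46 to 0.96 in the PRC2-null samples, with no overlap. No share over all genes was computed for such a ratio. The transcripts, of 8557 and 5991 bases, fall in different length classes, and the part of this in the ratio was not tested.

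As parts of the summed TPM of the 6 H3K4 methyltransferases, which ran from 67.7 to 110.9 in the retaining and from 59.7 to 124.4 in the PRC2-null samples, 3 enzymes had ranges that did not overlap. KMT2C took 6.35% to 8.45% in the retaining and 10.003% to 16.3% in the PRC2-null samples. KMT2A took 14.0% to 20.3% and 9.25% to 13.8%, and SETD1A 15.1% to 19.2% and 9.82% to 13.2%. The shares of KMT2B, KMT2D and SETD1B overlapped. The summed TPM overlapped as well, and no share over all genes was computed for such parts of a sum.

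KDM5B, an H3K4 demethylase, had the highest level of the members, between 42.6 and 96.2 TPM over the 12 samples. It was at 65.0 and 73.4 TPM in WT, 96.2 and 80.0 in EED-/-, 53.2 and 53.5 in SUZ12-/- and 80.5 and 50.8 in EZH2-/-/EZH1-/- samples. The difference of 0.12 (SE 0.16) was not called (adjusted p 0.522 in limma) and turned to -0.14 with median-ratio scaling and to -0.30 with length-class centring. NSD1, which makes H3K36me2, was at 28.6 and 37.3 TPM in WT, 44.6 and 37.7 in EED-/-, 20.3 and 18.8 in SUZ12-/- and 34.7 and 15.3 in EZH2-/-/EZH1-/- samples. Its difference of -0.16 (SE 0.19, adjusted p 0.465 in limma) was called with median-ratio scaling (-0.42) and with length-class centring (-0.58), and was 0.03 without EZH2-/-/EZH1-/- replicate 2. For both genes, on TPM as deposited, EED-/- samples lay above WT and SUZ12-/- samples below it, with neither line called against WT. Both transcripts are over 8 kb (9292 and 13042 bases), a class that lay at 0.70 and 0.51 in the EED-/- libraries and at -0.02 and 0.02 in WT. The part of this in the EED-/- levels was not tested, and neither gene was called in EED-/- cells under the other scalings. Both genes were called lower in SUZ12-/- cells with median-ratio scaling (KDM5B -0.55, NSD1 -0.89) and with length-class centring (-0.53 and -0.88).

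Counted over the members, 3 rose (KDM6B, KMT2C and SETD1B), 1 fell (SETD1A) and 6 were not called between the PRC2-null and retaining lines. Over all genes 43.8% were higher and 24.8% lower, so the members were called less often than genes at large in both directions. The members' median difference was 0.05 against 0.29 over all genes. Because this median moved to 0.07 with median-ratio scaling, changes are read relative to it: the split of genes called was 8370 higher and 4728 lower as deposited and 7042 and 6124 with that scaling. Under median-ratio scaling 2 members rose (KDM6B and KMT2C) and 4 fell (SETD1A, KMT2A, KDM6A and NSD1), and with length-class centring KDM5B fell too. KDM6B and KMT2C higher and SETD1A lower were the calls shared by all 3 scalings, as the plot of the differences shows.

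**Figure D3:**
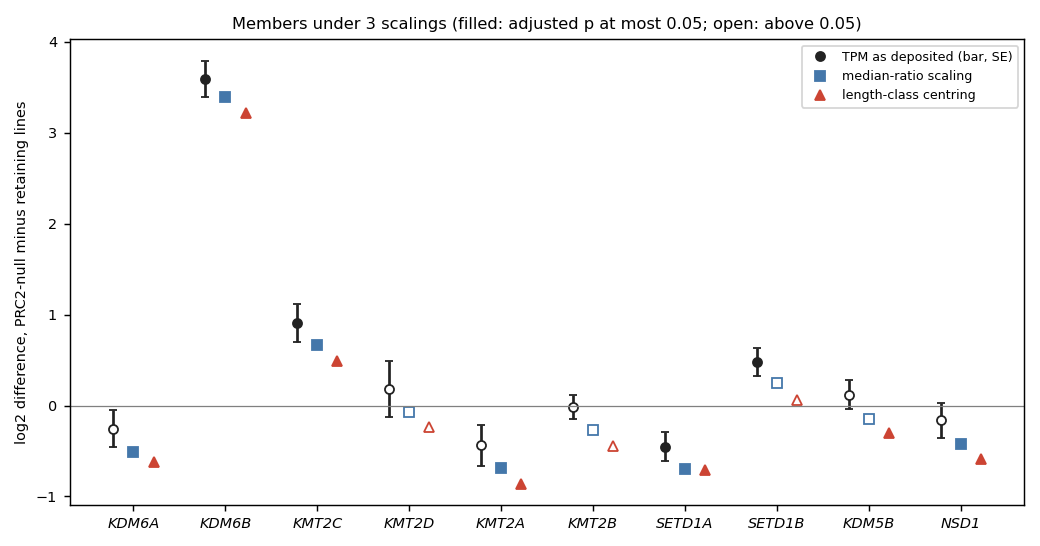
Log2 difference of PRC2-null minus retaining lines (vertical axis) for the 10 members (horizontal axis) from TPM as deposited (black, bars are SE), after median-ratio scaling (blue) and after length-class centring (red), with filled symbols at an adjusted p of at most 0.05. KDM6B stays above 3 under each, KMT2C goes from 0.91 to 0.49, and KMT2D and KDM5B change sign.

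Against WT, EED-/- cells had 2 members higher (KDM6B and KMT2C), beside 34.1% of genes higher and 17.0% lower. As deposited 6518 genes were higher and 3256 lower there, and with median-ratio scaling 5075 and 4728. SUZ12-/- cells had 1 higher (KDM6B) and 3 lower (SETD1A, KMT2A and KDM6A), beside 29.5% and 17.4% of genes. EZH2-/-/EZH1-/- cells had 1 higher (KDM6B) and 2 lower (SETD1A and KMT2A), beside 26.9% and 17.4% of genes. In EZH1-/- and EZH2-/- cells limma called 0 members, with 0 at an unadjusted p under 0.05, while 1.06% and 0.0628% of genes were called in either direction. In both of these lines 9 of the 10 members had a negative difference from WT, with KDM6B the exception, and a fit restricted to the samples of EZH1-/- and WT called KMT2A and KMT2D lower, beside 14.1% of genes lower and 14.4% higher in that fit. Of the genes called in EZH1-/- cells 143 were higher and 60 lower, and after length-class centring 251 and 181.

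Any difference among the 6 lines was called for 3 members (KDM6B, KMT2C and SETD1B), beside 64.5% of genes. Between the PRC2-null lines, 1 member differed: SETD1B was higher in EED-/- than in SUZ12-/- cells by 0.86 (SE 0.27, adjusted p 0.0446 in limma), where 19.6% of genes were called. The call held in 7 of 18 alternatives, and was lost with both other scalings, with a pseudocount of 0.1, with no filter, and without EED-/- replicate 1 or any WT, EZH1-/- or SUZ12-/- sample. EED-/- against EZH2-/-/EZH1-/- cells and SUZ12-/- against EZH2-/-/EZH1-/- cells gave 0 members each in limma, with 1 each at an unadjusted p under 0.05 (NSD1 and KDM6B), beside 0.796% and 14.3% of genes. Without EZH2-/-/EZH1-/- replicate 1 these counts were 5 and 2, beside 23.9% and 31.7% of genes. The split of genes called moved with the scaling, from 1978 higher and 1758 lower to 1451 and 2289 for EED-/- against SUZ12-/- cells and from 108 and 44 to 101 and 86 for EED-/- against EZH2-/-/EZH1-/- cells. As deposited all 10 members had a higher mean in EED-/- than in SUZ12-/- cells, with a median difference of 0.73 against 0.14 over all genes. With median-ratio scaling 8 did (not KMT2B and SETD1A), with length-class centring 7 (not KMT2C either), and the EED-/- libraries were also those with the highest long transcripts.

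After DOX withdrawal, KDM6B rose in steps. It was at 1.49 TPM with DOX, between 5.27 and 5.53 on days 8, 12 and 16, at 28.6 on day 20, 25.1 on day 24 and 54.8 on day 28. Each day lay above the sample with DOX, and days 20 to 28 lay in or above the range of the PRC2-null lines. These are single samples with no replicate check. The slope over the 6 days without DOX was 0.17 log2 units a day (SE 0.030, adjusted p 0.0140 in limma), and 12.4% of 17099 genes had a rising and 7.42% a falling slope. The slope was of like size without day 12 or day 28, at 0.16 each, but no longer called, with adjusted p of 0.0572 and 0.0858 in limma.

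KMT2D was the other member whose level rose with time. It was at 18.8 TPM with DOX and 19.3, 28.9, 41.0, 43.3, 54.1 and 61.4 TPM on days 8 to 28, higher at each day than at the last. The slope was 0.077 log2 units a day (SE 0.014, adjusted p 0.0147 in limma), and 0.052 after length-class centring (adjusted p 0.0458). It was not called without day 8, day 12 or day 28, with adjusted p of 0.0567, 0.0535 and 0.0595 in limma. KMT2D had not been called between the PRC2-null and retaining lines, where its difference was 0.18 (SE 0.30) as deposited. That difference was 0.51 without EZH2-/-/EZH1-/- replicate 2 and -0.24 with length-class centring, so it was not settled.

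KMT2C was at 2.70 TPM with DOX and 7.90, 6.45, 7.82, 10.1, 11.2 and 11.4 TPM on days 8 to 28. The step lay between DOX and day 8, and the slope over the 6 days was not called (adjusted p 0.200 in limma). WT samples were at 7.12 and 7.04 TPM, so the sample with DOX lay below WT and days 8 to 16 near it. Genes over 8 kb, among them KMT2C, lay at -0.68 in median deviation with DOX and -0.25 on day 8. The part of this in the step was not tested. SETD1B went from 3.68 TPM with DOX to 7.05 on day 8 and 13.6 on day 28, with WT samples at 6.03 and 5.54. With the sample with DOX placed before the days by rank, KMT2C and SETD1B were called as well, beside 2962 genes rising and 1349 falling. Without that sample 2118 genes rose and 1268 fell. After length-class centring of the 6 days the slopes of KMT2C and SETD1B were 0.0097 and 0.0107, with adjusted p of 0.735 and 0.673 in limma. The plot of the members by day shows these courses.

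**Figure D4:**
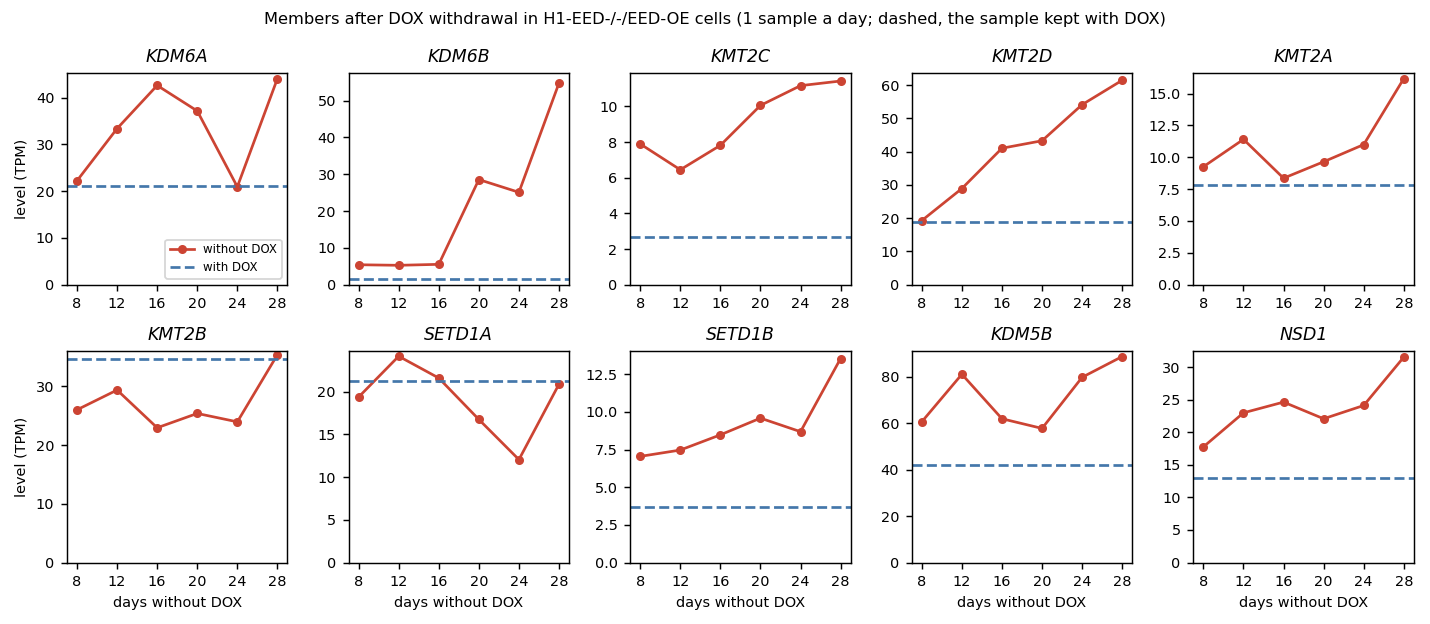
Level in TPM (vertical axis, from 0) of the 10 members at days 8 to 28 without DOX (horizontal axis; red, 1 sample a day), with the sample with DOX as a dashed blue line. KDM6B stays at 5.27 to 5.53 TPM until day 16 and reaches 54.8 on day 28, KMT2D climbs from 19.3 to 61.4, and KMT2B and SETD1A stay around or below the dashed line.

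KMT2B was at 34.7 TPM with DOX and between 23.0 and 35.4 without it, and SETD1A at 21.2 with DOX and between 12.1 and 24.2 without it, with the low on day 24. KDM6A went from 21.2 TPM with DOX to 44.1 on day 28 but was at 20.9 on day 24. KMT2A went from 7.81 to 16.2, KDM5B from 42.0 to 88.8 and NSD1 from 13.03 to 31.6 TPM between the sample with DOX and day 28. None of these 6 had a slope past the threshold. In the sample with DOX 7 of the 10 members lay below both WT samples, KMT2B and KDM6B above both and SETD1A between them, with KMT2A at 7.81 against 18.1 and 22.5 TPM and KMT2C at 2.70 against 7.12 and 7.04.

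On day 8, 2 members (KDM6B and KMT2C) were at least 2-fold above the sample with DOX on the TPM + 1 scale, beside 11.4% of 17245 genes kept and 15.7% of genes over 8 kb. On day 28 there were 7, beside 32.6% of genes, but of the genes with transcripts over 8 kb 51.0% were also at least 2-fold higher. The median log2 difference on day 28 was 1.14 for the members, 1.04 for genes over 8 kb and 0.41 for all genes. KDM6B stood above this, at 4.49, and KMT2C (1.75), KMT2D (1.66) and SETD1B (1.64) lay closer to it. Beside these courses, summed pluripotency markers were at 4777 TPM with DOX, 5564 on day 16, 2498 on day 20 and 438.8 on day 28, and summed mesoderm markers at 69.1, 233.6, 719.9 and 3148 TPM. KDM6B and KMT2C were thus above the DOX sample on day 8, when pluripotency markers summed to 4992 TPM. Other marker sums were higher on day 8 than with DOX, at 7.75 against 4.83 TPM for endoderm, 134.2 against 69.1 for mesoderm, 235.1 against 78.3 for neural and 47.1 against 14.0 for trophoblast markers, and their part in the result was not tested.

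The partners of these enzymes were counted from lists of 13 genes, of which 2 rose and 8 fell between the PRC2-null and retaining lines. With 4 other H3K4 demethylases and 4 other H3K36 methyltransferases, 5 of 21 rose, 10 fell and 6 were not called, and 4 rose and 9 fell under all 3 scalings. In the shared core, WDR5 (24.7 to 34.4 TPM in PRC2-null, 49.2 to 65.7 in retaining samples) and DPY30 (60.4 to 95.2 and 140.3 to 193.2) fell, by 0.97 and 1.04 on the log2 scale, and ASH2L and RBBP5 were not called. Of 2 subunits of the SETD1 complexes CXXC1, which binds unmethylated CG, fell by 0.55 and WDR82 was not called. The samples of the groups did not overlap for WDR5, DPY30 or CXXC1, all lower in the PRC2-null samples, as for 13.3% of all genes. Of the genes below, PSIP1, MEN1, PAXIP1 and KDM1A did not overlap either. The same held for HCFC2, NCOA6 and KDM5A, higher in the PRC2-null samples, as for 24.2% of all genes.

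Among 4 partners of KMT2A and KMT2B, 3 fell and 1 rose. PSIP1 (LEDGF), which tethers KMT2A and menin to chromatin, went from 288.2 to 680.1 TPM in the retaining to 28.4 to 58.9 in the PRC2-null samples, and fell by 3.36 (SE 0.19, adjusted p 8.63e-08 in limma). MEN1 (menin) fell by 0.52 and HCFC1 by 0.40, while HCFC2 rose by 2.23, from 0.28 to 1.5 up to 4.14 to 12.1 TPM. Of 3 partners of KMT2C and KMT2D, NCOA6 rose by 1.58, from 4.01 to 11.4 up to 17.9 to 28.4 TPM, PAXIP1 fell by 1.25, and PAGR1 fell by 0.54, a call lost with length-class centring. Over the days without DOX, PSIP1 went from 671.0 TPM on day 8 to 246.7 on day 20 and 44.7 on day 28, with a slope of -0.20 a day (adjusted p 0.00889 in limma).

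Other H3K4 demethylases were mixed. KDM1A (LSD1) was at 188.9 to 320.5 TPM in the retaining and 81.1 to 129.5 in the PRC2-null samples and fell by 1.25, while KDM5A rose by 0.95 and KDM1B by 0.75. KDM5C was not called. Of 4 other H3K36 methyltransferases NSD2 fell by 0.89, ASH1L rose by 0.70, a call lost under both other scalings, and NSD3 and SETD2 were not called. Of the PRC2 genes EZH2 fell by 0.84, at 14.0 to 33.1 TPM in PRC2-null against 22.02 to 58.9 in retaining samples, and EZH1, EED and SUZ12 were not called as deposited. EZH1 was called lower with median-ratio scaling (-0.34) and with length-class centring (-0.35). The lists other than PRC2 together had 5 of 21 genes higher and 10 of 21 lower, against 43.8% and 24.8% of all genes.

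The genes whose log2(TPM + 1) over the 12 samples followed KDM6B most closely were PXDC1, PTCHD4 and DAB2, with Pearson r of 0.996, 0.995 and 0.994. They are not rare in this, since 2475 genes had an r of at least 0.9, and the 12 points fall in 2 groups of samples. For KDM6A the closest were POM121, RP11-775G23.1 and DAPK1, with r of 0.924, 0.919 and 0.915, and only 4 genes reached 0.9. These are descriptions over samples that share libraries and the length dependence above.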

How the data were processed

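RNA-seq libraries (TruSeq, Illumina NextSeq) of 19 samples were used. TPM from RSEM, after alignment by Bowtie2 to a GRCh38 mRNA reference, were deposited by the authors for 33382 genes, 1 table a sample, summing to between 999999.2 and 1000001.0. Depth is unknown. The submitters' processing notes also name hg19, and the methods describe edgeR on counts, not used here.

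TPM were joined by Ensembl identifier. Genes reaching a TPM of 1 in 2 or more samples were kept (19100 for the 6 lines, 17099 for the 6 days) and log2(TPM + 1) was fitted in limma 3.58.1 (R 4.3.3; lmFit, contrasts.fit, eBayes with trend and robust) with a mean for each line, or with day as a line. Adjusted p are Benjamini-Hochberg over all genes tested, called at 0.05. The PRC2-null contrast averages 3 lines against 3. The fits were tested on simulated data. All 10 members are named, and list genes where called or counted; the members and lists were chosen with earlier results of these data known. Positions and transcript lengths are GENCODE 44 on GRCh38. Samples of a line differ in codes the labels do not explain, and nothing in them says that they came from separate cultures, so p-values measure only the spread between these samples, which may be technical. Alternatives were other pseudocounts, filters, scalings, thresholds, references and left-out samples.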

Additional observations from a re-analysis of the deposited data

Results flagged for a closer look

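SETD1B was the only member whose level differed between PRC2-null lines in a direct test, with a log2 difference of 0.86 (SE 0.27) between EED-/- and SUZ12-/- cells and an adjusted p of 0.0446 in limma. Both EED-/- samples (11.9 and 8.22 TPM) lay above both SUZ12-/- samples (5.18 and 4.82 TPM). The difference ran from 0.42 to 1.11 over 18 alternatives and passed the threshold in 7 of them.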

How the results depend on the processing

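KDM6B was called higher in the PRC2-null lines under all 18 alternatives (3.22 to 4.39) and KMT2C under all 19 (0.49 to 1.09). SETD1A kept its direction under 19 and its call under 13, SETD1B under 19 and 15. With TPM of at least 1 in all samples KDM6B was not tested. The median-ratio, length-class and WT-alone values of KMT2D were -0.073, -0.24 and -0.23, and of KDM5B -0.14, -0.30 and -0.045. Leaving out single samples gave -0.10 to 0.062 for KMT2B, -0.14 to 0.51 for KMT2D, -0.00493 to 0.24 for KDM5B and -0.35 to 0.027 for NSD1 (without EZH2-/-/EZH1-/- replicate 1 and 2).

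Members called at an adjusted p of 0.01 and a fold of 3 fell to 1 (KDM6B) in EED-/-, SUZ12-/- and EZH2-/-/EZH1-/- cells against WT and between PRC2-null and retaining lines, and to 0 for EED-/- against SUZ12-/- cells and the days. Genes called higher and lower were then, in that order, 3099 and 1164, 2768 and 995, 2220 and 1081, 2579 and 972, 493 and 676, and 232 and 114. Length-class centring gave 5, 7, 4, 7, 0 and 2 members for these comparisons. Genes called higher and lower were then 5796 and 4384, 5990 and 3828, 5329 and 3950, 7820 and 5558, 1644 and 2633, and 1631 and 1379. It gave 1 (KDM6B) for SUZ12-/- against EZH2-/-/EZH1-/- cells, beside 2100 genes higher and 1331 lower, and 6 for any difference, beside 13071 genes. EED-/- against SUZ12-/- cells also gave 0 with a pseudocount of 0.1, no filter or median-ratio scaling. Genes called higher and lower there were 1618 and 1428, 1845 and 1851, and 1451 and 2289. SUZ12-/- against WT gave 2 with no filter, beside 5805 genes higher and 3185 lower. The days gave 4 by rank with DOX, beside 2962 genes rising and 1349 falling. Fits of only a line and WT called 2 in EZH1-/-, 8 in SUZ12-/- and 1 in EZH2-/-/EZH1-/- cells, beside 28.5%, 73.1% and 34.8% of genes. The cause was not tested.

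Leaving out a sample of the lines changed the number of members called in every comparison but EZH1-/- and EZH2-/- cells against WT, which stayed at 0. The number of all genes called moved too. Each such fit leaves 1 sample in a line, so its counts are not read as results. Leaving out a day gave 0 to 2 members, with 225 genes rising and 199 falling without day 28 (0 members) and 2284 and 1320 without day 20 (2 members).

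Replicate numbers only name samples: deviations of same-numbered samples correlated from -0.12 to 0.22 over 15 pairs of lines. With a replicate block 4 members were called between PRC2-null and retaining lines, and 2 in EZH2-/-/EZH1-/- cells against WT, without KMT2A (adjusted p 0.0505 in limma). Genes called higher and lower were 8393 and 4743 in the first of these and 5143 and 3339 in the second. Depth is unknown, so precision rests on 2 samples a line and 1 a day.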
